A study of Bos taurus with 6 samples.

Results

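The EGF-like growth factors and the ERBB receptors they act on were followed in the cumulus, the somatic cell layers around the oocyte, of cattle. The system was taken as 10 genes: the ligands AREG, EREG, BTC, HBEGF, TGFA and NRG1, the receptors EGFR, ERBB2 and ERBB3, and the protease ADAM17. Members were read from every probe set of the array whose annotation gives 1 gene symbol and whose symbol is one of these genes. That rule found 7 of 24016 non-control probe sets, which read 5 of the 10 genes: 1 probe set each for AREG, BTC and NRG1, and 2 each for EGFR and ERBB3. EREG, HBEGF, TGFA, ERBB2 and ADAM17 had no such probe set and were not analysed here.

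The arrays came from pools of cumulus cells of crossbred cows (Bos indicus x Bos taurus), taken from ovaries collected at slaughter and stripped from the oocytes by pipetting. Large follicles, of at least 8 mm and termed competent in the labels, gave 3 arrays, and small follicles, of 1 to 3 mm and termed incompetent, gave 3. All complexes had compact cumulus of at least 3 layers, with no treatment named. The cows' age and how many cows or complexes made up a pool are unstated in the labels. The comparison asks how the cumulus transcripts of this signalling system differ with follicle size, which the study uses as a model of oocyte competence. The titles call the arrays biological replicates, but nothing states that pools came from separate animals, so each p-value speaks only to variation among these pools.

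EGF-like ligands are made as membrane-bound precursors, and proteases such as ADAM17 cut them free. The freed ligand pairs ERBB receptors on the same or a neighbouring cell and switches on their tyrosine kinase domains, with relays through RAS and MAP kinases, PI3 kinase and STAT proteins. In the ovulatory follicle, luteinising hormone induces AREG, EREG and BTC in mural granulosa cells, and these ligands carry the signal to the cumulus, where EGFR activity drives expansion and the resumption of meiosis. EGFR binds AREG and BTC, ERBB3 binds neuregulins and has little kinase activity of its own, and ERBB2 has no known ligand and acts as the partner of the others.

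The values are log2 probe set signals, and the array medians lay between 5.64 and 5.68. Markers of granulosa and cumulus cells were bright: 0 of 11 measured lay below the lower quartile of mean signal (3.83), and their mean per array was 10.89 to 11.04 in large-follicle arrays, against 10.34 to 10.50 in small-follicle arrays. Of these 11, 6 were higher (CYP19A1 by 2.14, CYP11A1 by 1.72, INHBA by 1.14, and FSHR, INHA and NR5A2) and 1 was lower (GATM at -1.20), with a median log2 difference of 0.42, and their part in the member differences was not tested. Of 7 oocyte markers, 3 lay below that quartile and 0 were called, with means of 4.32 to 4.36 in large-follicle arrays and 4.18 to 4.36 in small-follicle arrays. Leukocyte markers were higher in sign in 15 of 15 measured, of which 2 were called, with means of 4.48 to 5.46 in large-follicle arrays, against 4.18 to 4.78 in small-follicle arrays. Their part in the differences given here was not tested. Of 5 theca, 9 stroma and smooth muscle, and 4 erythrocyte markers 0 were called, and of 8 endothelial markers 1 was lower. Among all 9155 genes, each read from its brightest probe set as the markers were, 7.08% were called higher and 8.3% lower. By sign, 4712 of these genes were higher. Mean signal per array was 6.29 to 6.80 (large-follicle) and 6.13 to 6.42 (small-follicle) for theca markers. For stroma and smooth muscle markers it was 6.34 to 6.79 and 6.31 to 7.06. INSL3, HSD3B1 and MYH11 lay at percentiles 89.8, 90.2 and 90.7 of mean signal. Stroma and smooth muscle differences ran from -1.08 (COL1A2) to 1.37 (PDGFRA). The part of these cells in the member differences was not tested.

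Among the 7 member probe sets, the ligand BTC was lower in cumulus cells of large follicles and the other 6 did not pass. A probe set was called where limma gave a Benjamini-Hochberg adjusted p under 0.05 over all 24016 probe sets. By that rule 1 of the 7 (14.3%) was called, on the lower side, where 12.9% of all probe sets were called in either direction and 7.16% on the lower side. On the higher side 0 of the 7 were called, against 5.72% of all probe sets (limma; 1 of the 7 was higher at an unadjusted p under 0.05). The groups did not overlap in 2 of the 7 (28.6%), BTC and 1 of the EGFR probe sets, against 30.9% of all probe sets. The median log2 difference of the members was 0.04, beside 0.01 for all probe sets. These shares lie near those of the whole array.

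**Figure D1:**
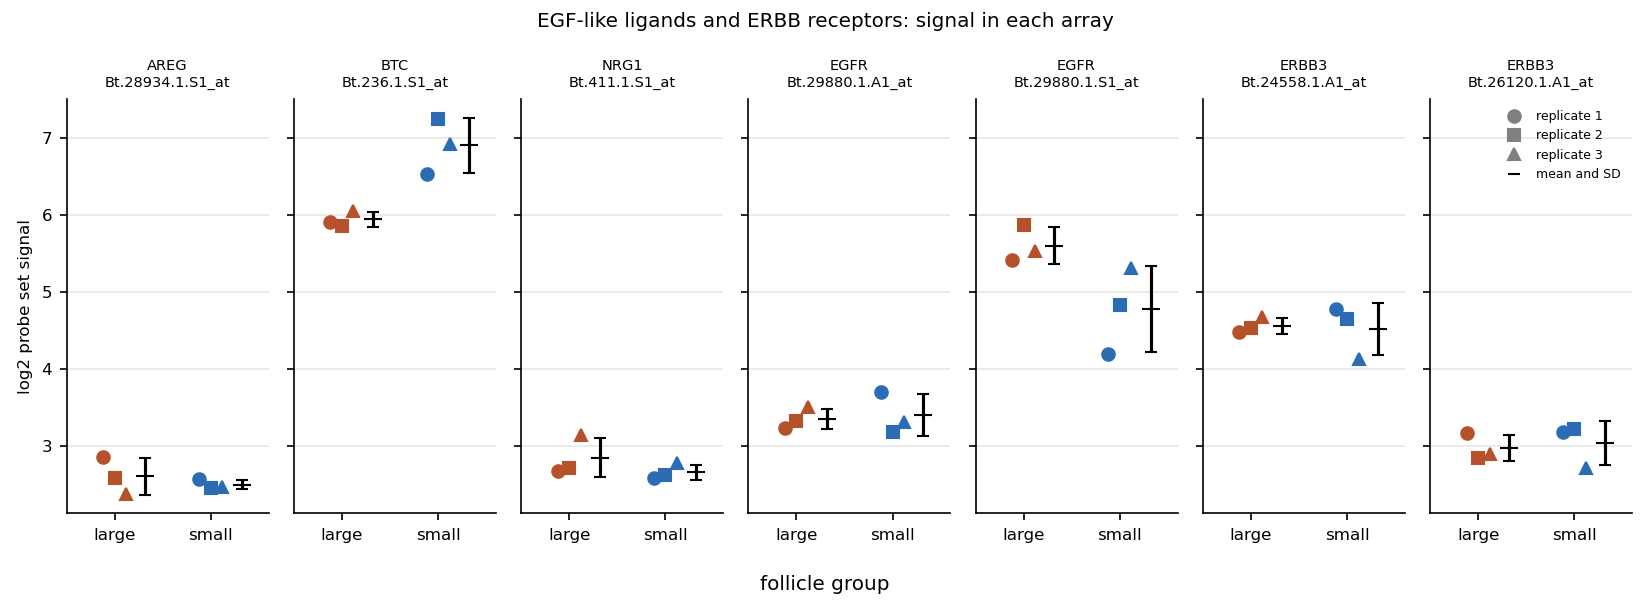
Log2 signal of each member probe set (vertical axis) in the 3 large-follicle and 3 small-follicle arrays, with 1 symbol per replicate and a black bar for the mean and SD (n = 3). BTC lies between 5.86 and 6.05 in large-follicle arrays, below all small-follicle arrays, and the EGFR probe set ending in S1_at spans 4.20 to 5.31 in small-follicle arrays.

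BTC (NCBI Gene 280737 in the annotation) encodes betacellulin, a ligand of EGFR and ERBB4. Its probe set read 5.91, 5.86 and 6.05 in large-follicle arrays, against 6.53, 7.24 and 6.92 in small-follicle arrays. Every large-follicle array lay below every small-follicle array, with a gap of 0.48 between the nearest values of the groups. The large-follicle values were close together, with a range of 0.19, and the small-follicle values spread over 0.71. BTC averaged 5.94 ± 0.10 in large-follicle arrays and 6.90 ± 0.36 in small-follicle arrays (SD, n = 3 each).

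The log2 difference of BTC was -0.96 ± 0.17 (SE; 95% interval -1.35 to -0.57), with a limma Benjamini-Hochberg adjusted p = 0.0101. On the linear scale the signal was 1.94-fold higher in small-follicle arrays (95% interval 1.48 to 2.55). BTC stood at place 1070 of 24016 by p and at place 231 of the 1720 lower calls by size. In pooled cells, fewer cells that make BTC and less BTC transcript per cell cannot be told apart. The BTC difference ran from -1.14 without small-follicle replicate 1 to -0.78 without small-follicle replicate 2, and it was called without any 1 of the 6 arrays. Its mean signal lay at percentile 58.8 of all probe sets.

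AREG (NCBI Gene 538751) encodes amphiregulin, which in RefSeq's gene order lies between EREG and BTC with 0 other protein-coding genes between them. Its probe set read 2.86, 2.59 and 2.38 in large-follicle arrays, against 2.57, 2.46 and 2.47 in small-follicle arrays. All 3 small-follicle values fell inside the large-follicle range, and the highest and the lowest of the 6 values were both large-follicle arrays. The log2 difference was 0.11 ± 0.13 (SE, with a 95% interval of -0.19 to 0.41 and limma adjusted p = 0.664). In folds of signal that interval is 0.876 to 1.33. The mean of AREG, 2.55, lay at percentile 4.45 of mean signal, low in both groups, and RMA values carry no detection call. The AREG difference had no settled direction, and it was -0.02 without large-follicle replicate 1.

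NRG1 (NCBI Gene 281361) encodes neuregulin 1, a ligand of ERBB3 and ERBB4. It read 2.68, 2.72 and 3.14 in large-follicle arrays, against 2.59, 2.62 and 2.78 in small-follicle arrays. Large-follicle replicate 3 was the highest array, and the groups overlapped. The log2 difference was 0.18 ± 0.14 (SE; 95% interval -0.14 to 0.50, limma adjusted p = 0.465), and it was 0.04 without large-follicle replicate 3. The mean lay at percentile 7.76 of mean signal.

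EGFR (NCBI Gene 407217) encodes the receptor of AREG, EREG, BTC, HBEGF and TGFA, and its 2 probe sets, which the annotation ties to the same sequence record, gave different readings. The brighter of the EGFR probe sets (its name ends in S1_at) read 5.41, 5.87 and 5.53 in large-follicle arrays, against 4.20, 4.83 and 5.31 in small-follicle arrays. The large-follicle arrays were higher without overlap, but the nearest values of the groups were only 0.10 apart, and small-follicle arrays spread over 1.11. EGFR averaged 5.60 ± 0.24 in large-follicle arrays and 4.78 ± 0.56 in small-follicle arrays by this probe set (SD, n = 3 each).

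The log2 difference of that EGFR probe set was 0.82 ± 0.26 (SE; 95% interval 0.23 to 1.41). Its limma adjusted p = 0.0752 (unadjusted p = 0.0121) did not pass. On the linear scale that is 1.77-fold, with a 95% interval of 1.18 to 2.66. The EGFR difference fell to 0.53 without small-follicle replicate 1. Without small-follicle replicate 3 it was 1.09 and was called, with a limma adjusted p = 0.021.

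The dimmer EGFR probe set (ending in A1_at) read 3.24, 3.32 and 3.50 in large-follicle arrays, against 3.70, 3.18 and 3.31 in small-follicle arrays. The large-follicle values all lay inside the small-follicle range. Its log2 difference was -0.04 ± 0.15 (SE; 95% interval -0.38 to 0.30, limma adjusted p = 0.896), and its mean lay at percentile 18.0 of mean signal. The mean of both EGFR probe sets differed by 0.39 (limma adjusted p = 0.0702 among genes). Which strand and which part of the transcript each reads is not known here, so this mean may mix unlike readings.

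**Figure D2:**
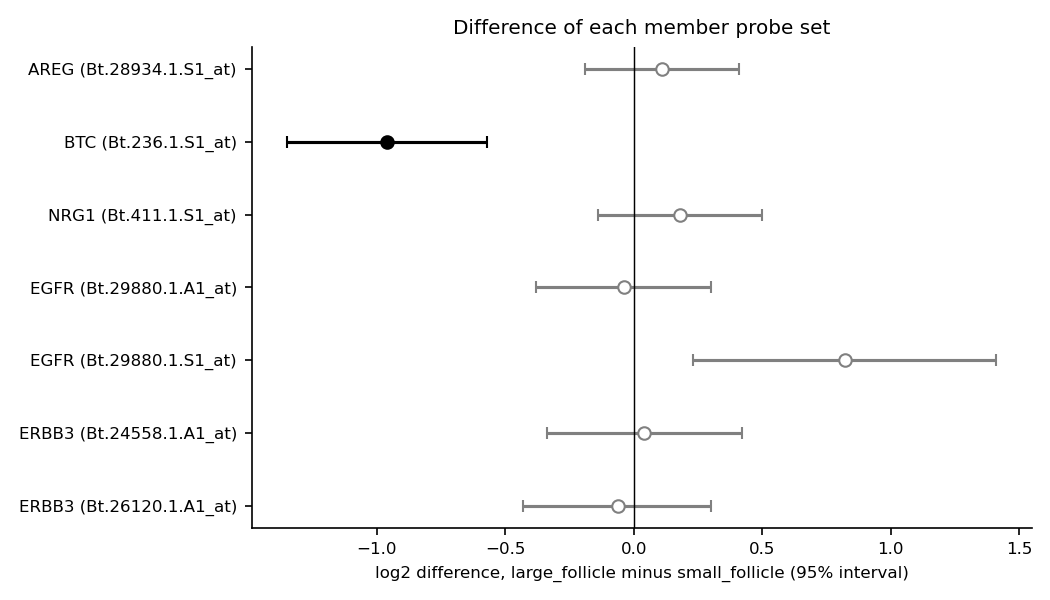
Log2 difference of each member probe set, large-follicle minus small-follicle arrays (horizontal axis), with its 95% interval, where the filled symbol marks the call. BTC lies at -0.96 with an interval below 0, the EGFR probe set ending in S1_at lies at 0.82, and the intervals of the other 5 include 0.

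ERBB3 (NCBI Gene 785655) also had 2 probe sets, and both gave small differences. The brighter of them read 4.48, 4.53 and 4.67 in large-follicle arrays, against 4.78, 4.65 and 4.13 in small-follicle arrays. The groups overlapped, with small-follicle arrays at both the top and the bottom. The log2 difference was 0.04 ± 0.17 (SE; 95% interval -0.34 to 0.42, limma adjusted p = 0.916). The dimmer ERBB3 probe set read 3.17, 2.85 and 2.90 in large-follicle arrays, against 3.18, 3.22 and 2.71 in small-follicle arrays. Its log2 difference was -0.06 ± 0.16 (SE; 95% interval -0.43 to 0.30, limma adjusted p = 0.854), and the groups overlapped here too. In both ERBB3 probe sets the lowest array was small-follicle replicate 3.

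Signal limits 4 of the 7 member probe sets. AREG, NRG1, the dimmer EGFR and the dimmer ERBB3 probe set had means below the lower quartile of all probe sets, and the other 3 lay above it. Of the 5999 probe sets of the array below that quartile 2.3% were called, against 16.4% of the 18017 others. For AREG and NRG1, each read by 1 such probe set, the intervals leave signal differences of up to 0.41 and 0.50 log2 units possible. They concern probe set signal, and at such low signal they need not bound the difference in transcript.

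A sign of RNA quality also differed between the arrays. For 6 bovine control transcripts the log2 signal at the 5' end was subtracted from that at the 3' end. Their average, the 3'-minus-5' index, is higher where the 5' ends are less well represented. It was 2.15, 1.77 and 2.01 in large-follicle arrays, against 2.68, 2.53 and 2.16 in small-follicle arrays. The averages were 1.98 ± 0.19 in large-follicle arrays and 2.46 ± 0.27 in small-follicle arrays (SD, n = 3 each), which differ by -0.48. A 2-sided exact permutation test gave p = 0.1, the lowest value this number of arrays can reach.

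The brighter EGFR probe set ordered the 6 arrays exactly against this index. EGFR signal was highest in large-follicle replicate 2, which had the lowest index, and lowest in small-follicle replicate 1, which had the highest. The order held inside each group as well as between them. Pearson's r of EGFR with the index was -0.97 (2-sided exact permutation test, n = 6, p = 0.00139, the lowest value 6 arrays can reach) and Spearman's rho was -1 (exact permutation p = 0.00278). Adjusted by Benjamini-Hochberg over the 7 member probe sets these exact p-values were 0.00972 and 0.0194. The permutations shuffled all 6 arrays without regard to group. Since EGFR and the index both differ between the groups without overlap, the group difference is part of these p-values. Without the 2 arrays farthest from the median index, large-follicle replicate 2 and small-follicle replicate 1, r of EGFR was -0.99. Of all probe sets, 0.6% (144 of 24016) had an r at least as far from 0.

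With the index as a covariate, the difference of this EGFR probe set was 0.00 ± 0.20 (SE, limma adjusted p = 0.996). The BTC difference was -1.06 ± 0.29 (SE, limma adjusted p = 0.116) with the covariate, so BTC was about as large in size but no longer called. Pearson's r of BTC with the index was 0.67 (exact permutation test, n = 6, p = 0.147, adjusted over the 7 p = 0.376), and Spearman's rho was 0.77 (exact permutation p = 0.103, adjusted p = 0.318). Without the same 2 arrays r of BTC was 0.78. Unlike EGFR, BTC did not follow the order of the index inside either group. Small-follicle replicate 1 had the highest index (2.68) and the lowest BTC of its group (6.53). Large-follicle replicate 1 had the highest index of its group (2.15), but replicate 3 had the highest BTC there (6.05). Both r values of BTC thus reflect that BTC and the index differ between the groups. ERBB3 read 0.44 ± 0.21 and 0.38 ± 0.16 (SE) with the covariate, with limma adjusted p = 0.305 and 0.254. For the other members r with the index lay between -0.53 and 0.69, with exact permutation p of at least 0.161 for r and at least 0.136 for rho before adjustment. The part of RNA quality in the EGFR and BTC differences was not tested beyond these values.

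**Figure D3:**
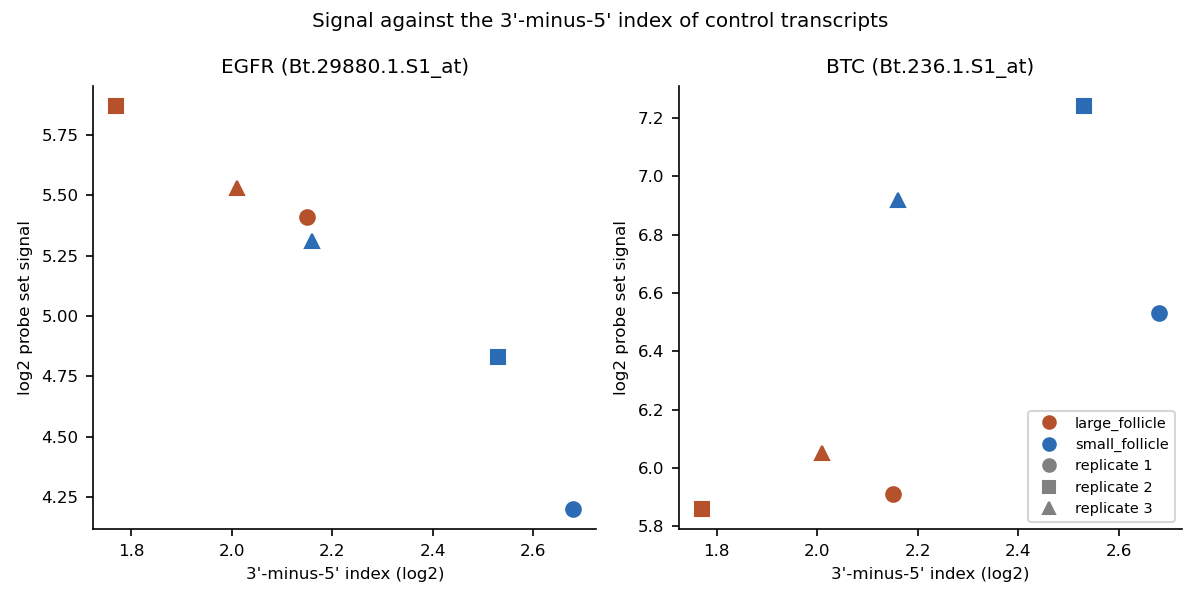
Log2 signal (vertical axis) of the brighter EGFR probe set (left) and of BTC (right) against the 3'-minus-5' index of control transcripts (horizontal axis) in the 6 arrays, coloured by group with 1 symbol per replicate. EGFR is lower where the index is higher (r = -0.97), and BTC is higher in the 3 small-follicle arrays, which also have the higher index (r = 0.67). Inside either group BTC does not follow the order of the index.

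The genes around the receptors were read from lists of the EGF family and its pathway, 1 probe set per gene (the brightest), with calls from the same limma fit. Over all lists 85 of 122 genes were measured, of which 14 were higher, 4 lower and 67 did not pass. Among all 9155 genes read this way 7.08% were higher and 8.30% lower, with a median log2 difference of 0.01, against a median of 0.08 in the lists.

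Of 13 measured feedback inhibitors and genes of receptor turnover 3 were higher, 1 was lower and 9 did not pass, with a median log2 difference of 0.21. SPRY1, a Sprouty protein that restrains signalling from receptor tyrosine kinases to MAP kinase, read 8.56, 8.68 and 8.43 in large-follicle arrays, against 6.40, 6.37 and 7.14 in small-follicle arrays. The groups lay far apart, and the log2 difference of SPRY1 was 1.92 ± 0.20 (SE, limma adjusted p = 0.00152).

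ERRFI1, also called MIG6, binds the kinase domain of EGFR and blocks it. It read 11.31, 11.28 and 11.33 in large-follicle arrays, against 9.66, 9.88 and 10.36 in small-follicle arrays. The log2 difference of ERRFI1 was 1.34 ± 0.17 (SE, limma adjusted p = 0.00271). Its other 3 probe sets were called in the same direction, at 1.32, 0.64 and 0.48, so ERRFI1 was higher by all 4, the last with a limma adjusted p = 0.0497 at percentile 28.4 of mean signal.

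LRIG3, a transmembrane protein of the LRIG family, differed by 1.05 ± 0.24 (SE, limma adjusted p = 0.0269). SOCS5, which in cultured cells promotes EGFR breakdown, differed by -0.58 ± 0.12 (SE, limma adjusted p = 0.0193). The LRIG3 call was lost without large-follicle replicate 1 (1.08) or 2 (0.89) and without small-follicle replicate 1 (0.91) or 2 (0.90), and it was 0.30 with the index as a covariate. The SOCS5 call was lost without large-follicle replicate 1 (-0.55) or 3 (-0.57) and without small-follicle replicate 1 (-0.49) or 2 (-0.57). SPRY1 (1.79 to 2.17) and ERRFI1 (1.19 to 1.54) were called without any 1 array.

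Among 14 measured genes of the immediate early list, some of which growth factor receptors induce within minutes, 4 were higher, 1 was lower and 9 did not pass (median 0.09). The AP-1 factor JUNB averaged 9.57 ± 0.08 in large-follicle arrays and 8.61 ± 0.04 in small-follicle arrays (SD, n = 3 each), a log2 difference of 0.97. IER3 differed by 1.02 ± 0.15 (SE), the transcription factor ETS2 by 0.78 ± 0.14 and the AP-1 factor FOSL1 by 0.64 ± 0.14. A second, dimmer ETS2 probe set read 0.02 and did not pass. FOS, another AP-1 subunit, differed by -0.66 ± 0.12 (SE), and by -0.84 in its second probe set, which was called too. The FOSL1 call was lost without large-follicle replicate 1 (0.60) or 2 (0.62) and without small-follicle replicate 2 (0.69).

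Of 12 measured genes of the RAS-MAPK relay 2 were higher and 0 lower (median 0.16). MAP2K1, the MAP kinase kinase MEK1, differed by 0.72 ± 0.10 (SE, limma adjusted p = 0.0036). RPS6KA1, a ribosomal S6 kinase downstream of ERK, differed by 0.40 ± 0.11 (SE, limma adjusted p = 0.0463), a call that was lost whichever of the 6 arrays was left out, with differences of 0.33 to 0.44. HRAS at 0.27 ± 0.09 did not pass. Nor did ARAF at 0.09, though its dimmer probe set was called at 0.58 (limma adjusted p = 0.024). Of 8 genes of the PI3K-AKT, PLC gamma, SRC and STAT relay 1 was higher and 0 lower (median -0.04): STAT3 differed by 0.83 ± 0.10 (SE, limma adjusted p = 0.00257), and its dimmer probe set by 0.65, also called. PIK3R2 at -0.23 and AKT2 at -0.13 did not pass. PIK3CA at -0.10 did not pass either, though its dimmer probe set was called at -0.45 (limma adjusted p = 0.033).

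Of 10 measured genes of ligand shedding and its control 0 were higher and 1 was lower (median 0.01). TIMP3, an inhibitor of ADAM17, read 6.71, 6.83 and 6.78 in large-follicle arrays, against 7.18, 7.11 and 7.50 in small-follicle arrays. The groups did not overlap, and the log2 difference of TIMP3 was -0.49 ± 0.12 (SE, limma adjusted p = 0.0342). That call was lost whichever of the 6 arrays was left out, with differences of -0.57 to -0.37. ADAM19 at -0.41, a protease that sheds neuregulin in the mouse, and CD9 at 0.20 did not pass. EGF, the 1 other ligand measured, read 4.19, 3.68 and 4.11 in large-follicle arrays, against 4.03, 4.06 and 3.87 in small-follicle arrays, a difference of 0.01 ± 0.15 (SE).

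Among genes that EGFR signalling acts on in the expanding cumulus, 10 were measured. By the brightest probe set 2 were higher, 1 was lower and 7 did not pass (median 0.31). HAS2, a hyaluronan synthase gene, did not pass by it, at -0.31 (limma adjusted p = 0.113). Its other probe sets were called in opposite directions, at 0.87 and -0.63 (limma adjusted p = 0.0455 and 0.016). PTGS2, the inducible prostaglandin synthase, differed by -1.28 ± 0.20 (SE), while its 2 dimmer probe sets read -0.14 and 0.06 and did not pass. VCAN, the matrix proteoglycan versican, differed by 0.52 ± 0.12 (SE), with other probe sets at 0.42 (called) and 0.56 (not called). CEBPB, a transcription factor downstream of ERK in mouse granulosa cells, differed by 0.93 ± 0.22 (SE), and by 1.56 in its second probe set, also called. The VCAN call was lost without large-follicle replicate 1 (0.50) or 2 (0.46) and without small-follicle replicate 1 (0.49) or 2 (0.48). The CEBPB call of the brightest probe set was lost without large-follicle replicate 1 (0.85) or 2 (0.73) and without small-follicle replicate 1 (0.99), 2 (0.89) or 3 (0.90).

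Of 12 measured genes upstream of the ligands 1 was higher and 0 lower (median 0.08). The follicle-stimulating hormone receptor FSHR differed by 0.56 ± 0.13 (SE, limma adjusted p = 0.0258). The FSHR call was lost without large-follicle replicate 1 (0.62), 2 (0.51) or 3 (0.55) and without small-follicle replicate 1 (0.55) or 2 (0.45). The luteinising hormone receptor LHCGR at 0.31 (percentile 23.0 of mean signal) and PRKACA at -0.24 did not pass. CREM at -0.28 did not pass either, though a dimmer probe set of it was called at 0.68 (limma adjusted p = 0.00716). Of 5 measured genes that hold the oocyte in meiotic arrest or couple it to the cumulus, 1 was higher (median 0.00). NPR2, the receptor of C-type natriuretic peptide whose cyclic GMP keeps the oocyte arrested, differed by 0.52 ± 0.09 (SE, limma adjusted p = 0.00963), and it was called without any 1 array (0.47 to 0.55). Its ligand gene NPPC read 0.03 ± 0.20 (SE), the gap junction protein gene GJA1 -0.15, PDE5A -0.15 and PRKG1 0.00, and these did not pass.

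With that index as a covariate, 2 of the 19 genes called above by their brightest probe set, BTC included, were still called. They were SPRY1 at 1.36 (limma adjusted p = 0.0478) and JUNB at 0.96 (limma adjusted p = 0.0466). Over all probe sets 99 higher and 116 lower calls were left, against 1374 and 1720 without the covariate, so most calls of the array were lost too. All 19 genes kept their sign. With the covariate 5 of them moved by over 1.5 times: LRIG3 read 0.30, FSHR 0.29, FOSL1 0.37 and VCAN 0.33, which are smaller differences, and TIMP3 read -0.76, a larger one. ERRFI1 read 0.93 (limma adjusted p = 0.0828), STAT3 0.69, IER3 0.76, CEBPB 0.85, PTGS2 -1.0 and SOCS5 -0.43, somewhat smaller in size than without it. MAP2K1 at 0.73, NPR2 at 0.52, RPS6KA1 at 0.40, FOS at -0.68 and ETS2 at 0.90 were at least as large in size as without the covariate and lost the call. The index was at most 2.15 in large-follicle arrays and at least 2.16 in small-follicle arrays. In 6 arrays the index and follicle size therefore cannot be cleanly told apart. The part of RNA quality in these differences was not tested beyond this covariate.

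**Figure D4:**
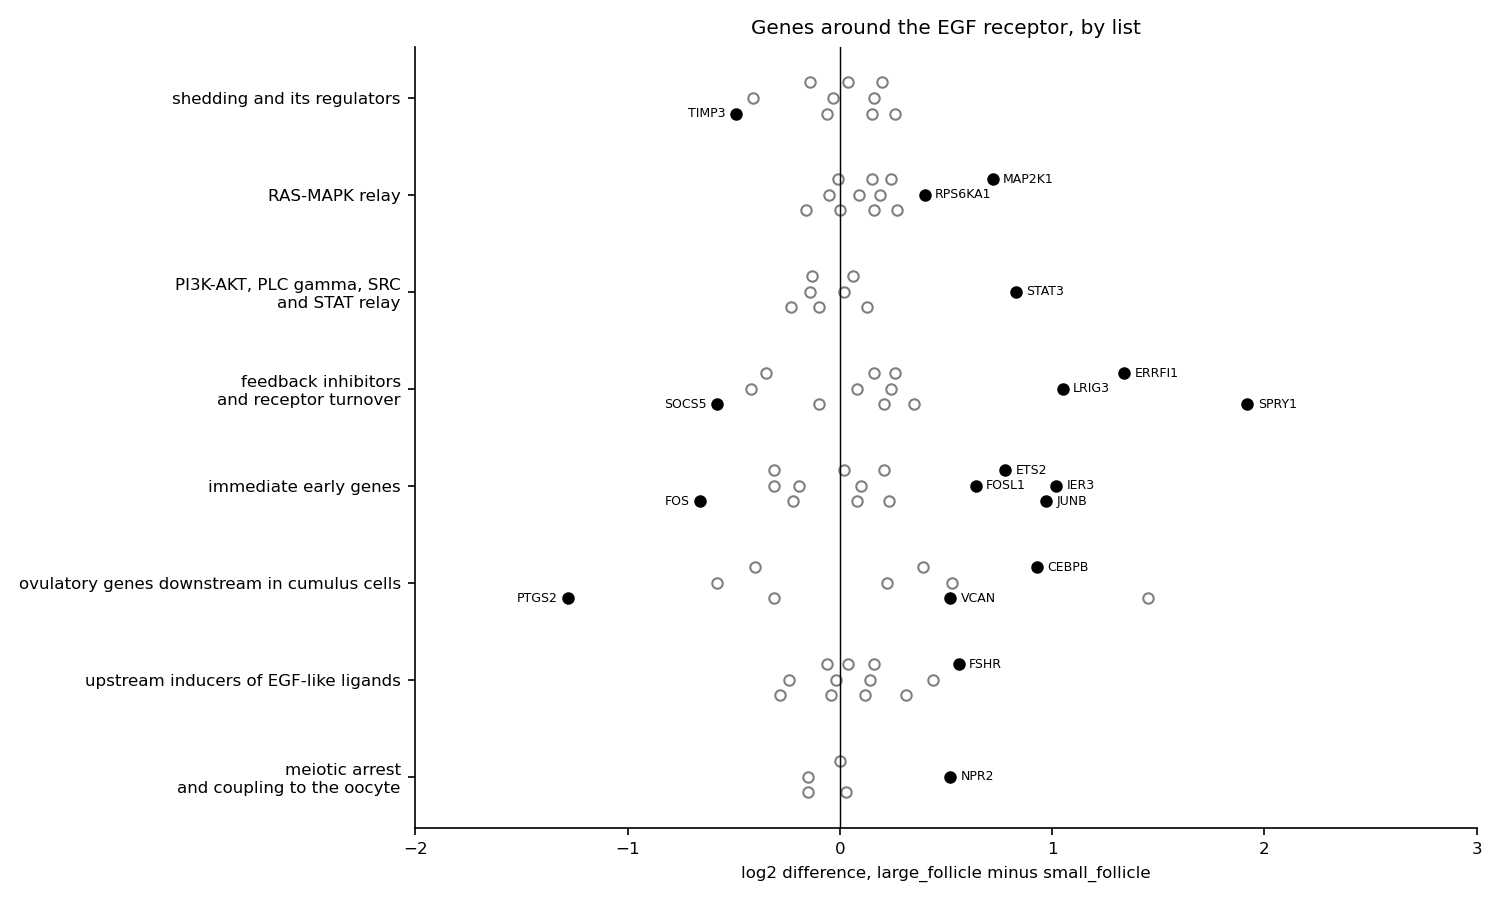
Log2 difference (horizontal axis, large-follicle minus small-follicle arrays) of each measured gene of 8 pathway lists (rows), each read from its brightest probe set, with called genes filled and named. SPRY1 at 1.92 and ERRFI1 at 1.34 lie highest among the called genes and PTGS2 at -1.28 lowest.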

How the data were processed

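Per the labels, Affymetrix bovine arrays measured biotin-labelled RNA of 6 pools, 3 in each group of follicle size. The authors deposited log2 signals per probe set, between 1.80 and 14.39, and RMA is named in the submitters' processing notes. Its software, version and settings are not stated there. The number of arrays limits the precision, and RMA signals carry no detection call.

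The 112 control probe sets were left out, which leaves 24016, of which 13292 carry 1 symbol, 86 several and 10638 none in the platform annotation. Symbols were checked against RefSeq (ARS-UCD2.0) for names and gene order only, with 13263 probe sets matched and 0 symbols altered. No sequence is printed, since none was at hand for these genes.

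Differences (large_follicle minus small_follicle) were tested by the moderated 2-sided test of limma 3.58.1 (R 4.3.3), with no block and no filter, and p-values were adjusted by Benjamini-Hochberg across the 24016 probe sets. Single values were compared by exact permutation tests. The fit was tested on simulated data.

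Values are given for every member probe set, by gene and, where a gene has 2, as the brighter and the dimmer one. Of each pathway list the called genes are named, up to 4 by p in each direction, filled up to 3 by p where fewer were called, and all where 6 or fewer were measured. ETS2, FOS, VCAN and others with several probe sets were read from the brightest. HAS2, PIK3CA, ARAF and CREM, called only by a dimmer probe set, are named as well. The members, the lists and the index as a covariate were chosen with earlier results of these data known. As alternatives each array was left out in turn, and a replicate block, 2 filters on low signal, 3 scalings, array weights, a trended robust prior, the index as a covariate, 1 mean per gene, removal of probe sets of several transcripts, and thresholds of 0.01 and 0.10 were tried. Plots used matplotlib 3.10.9 in python 3.11.15.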

Additional observations from a re-analysis of the deposited data

How the results depend on the processing

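BTC kept its direction in all 17 other settings (-1.14 to -0.78) and was called in 16, not with the 3'-minus-5' index as covariate. At a threshold of 0.01 it was not called, which leaves 0 member calls, as with the index. The brighter EGFR probe set was called without small_follicle replicate 3 and at a threshold of 0.10, which gives 1 higher member call; leaving out 1 array gives 0 to 1. The other 5 member probe sets were called in none of their settings.

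Over all probe sets, leaving out 1 array gave 787 to 1142 higher and 828 to 1337 lower calls, against 1374 and 1720. For the pathway lists that range was 8 to 12 higher and 2 to 4 lower, against 14 and 4. With the index as covariate the counts were 99 higher and 116 lower over all probe sets, and 2 and 0 in the lists. A threshold of 0.01 gave 528 and 535 over all probe sets, and 7 and 1 in the lists. With 1 mean per gene, where fewer features were tested, 728 and 745 genes were called.

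No pairing by replicate number was seen: deviations from the group means correlated at -0.34 to 0.00 between same-numbered arrays. Of 3 large-follicle arrays 0 correlated best with their own number. With 3 arrays in each group, these correlations cannot decide whether same-numbered arrays were collected or processed together. A replicate block gave 930 higher and 1034 lower calls over all probe sets and 9 higher ones in the lists. BTC was called with the block (-0.96, limma adjusted p = 0.022). The filters removed AREG, NRG1, the dimmer EGFR and the dimmer ERBB3 probe sets, and the filter at the median also the other probe sets of EGFR and ERBB3, so these have no value there. Low signal limits these probe sets.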
